A study of Saccharomyces cerevisiae with 16 samples.

Results

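The introns of nuclear tRNA genes and of the U3 small nucleolar RNA genes were examined in budding yeast grown in different stressors. They were chosen as the rows of the deposited intron table that lie on a nuclear chromosome and have no row in the table of coding sequences (CDS). The rule found 62 of 347 intron rows, of which 60 are tRNA introns and 2 are the introns of snR17a and snR17b, and it used no measured value. The other rows are 281 introns of nuclear protein-coding genes and 4 mitochondrial rows. Shares of changed introns and median log2 ratios given below for introns of protein-coding genes also draw on 24 separate rows of 5' UTR introns.

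The study sequenced RNA of 8 samples, each as a ribodepleted library (rRNA removed) and as a polyA library (polyadenylated RNA selected), so that 16 libraries were analysed. A culture labelled RPS22B-GFP with the 5' UTR intron deleted was grown in LiCl, and 5 cultures labelled WT were grown in LiCl, NaCl (0.4 M), glucose (20%), myriocin (0.32 µg/ml), an inhibitor of sphingolipid synthesis, or fenpropimorph (0.85 µM), an inhibitor of ergosterol synthesis. Cells sorted by the GFP signal of an Rps22B fusion in LiCl gave the Rps22B-high and the Rps22B-low sample. Every RNA sample had 1 library of each type, so no difference between treatments has a replicate check and none is given a p-value. By the labels and methods, cultures were re-inoculated every 8 h over 24 h, and LiCl, myriocin and fenpropimorph were set to about 50% growth inhibition, which is not stated for NaCl and glucose. The sorted cells came from 6 h in 4.5 mg/ml LiCl by the methods, although their labels give 24 h, and their genotype is labelled RPS22B-GFP in the polyA libraries and RPS22B-GFP HOdelta::TDH3pr-mCherry-natMX4 in the ribodepleted libraries. A culture without a stressor was not analysed here.

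Transfer RNA genes are transcribed by RNA polymerase III, and in yeast those with an intron carry it just behind the anticodon. The intron is cut out by the Sen endonuclease at the surface of mitochondria, without a spliceosome, the exons are joined by the ligase Trl1, and the freed intron is degraded. The U3 genes are transcribed by RNA polymerase II, their introns are removed by the spliceosome, and U3 guides early cleavage of the pre-rRNA for the small ribosomal subunit. Counts on these introns can hold reads of unspliced precursors, of freed introns and of transcripts of neighbouring genes that run across them. These cannot be told apart here.

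The sequences of the introns that the results below turn on follow, 5′ to 3′ on the strand of the gene, from the R64 reference. Capitals in tRNA introns mark the first triplet complementary to the anticodon, and those in U3 introns mark the 5′ splice site and the branch point sequence. All 60 tRNA introns matched the gap between the RefSeq exons of their gene, and each lies between the 2 exons of its tRNA gene.
tI(UAU)D, chromosome IV, 884398 to 884457, plus strand, bases 1 to 30 of 60: gcaacattcggtttccgaagtttctgtgcc
tL(CAA)C, chromosome III, 90897 to 90928, plus strand, bases 1 to 30 of 32: aaatatcTTGaccgcagttaactgtgggaa
tL(CAA)G1, chromosome VII, 205559 to 205590, plus strand, bases 1 to 30 of 32: caatatcTTGaccgcagttaactgtgggaa
tS(GCU)F, chromosome VI, 191558 to 191576, minus strand: tttcctcagaaaAGCaatt
tX(XXX)L, chromosome XII, 784390 to 784409, plus strand: tttcctcagaaaagcaatta
tW(CCA)P, chromosome XVI, 56205 to 56238, minus strand, bases 1 to 30 of 34: ttaaatctTGGaaattccacggaataagat
tP(UGG)O1, chromosome XV, 301133 to 301162, plus strand: cgacttcctgattaacagggggacaaagca
tK(UUU)O, chromosome XV, 438680 to 438702, plus strand: agcgcatttgcttaagcaaggat
tF(GAA)P1, chromosome XVI, 560234 to 560252, minus strand: aaaaaacTTCggtcaagtt
tL(UAG)L1, chromosome XII, 592563 to 592581, minus strand: tgggtttaacctCTAaaat
snR17a, chromosome XV, 780121 to 780277, plus strand, first 20 bases: GTATGTaatataccccaaac
snR17a, bases 128 to 157: gcagcagcttttGACTAACacattctacag
snR17b, chromosome XVI, 281374 to 281503, minus strand, first 20 bases: GTATGTtttataccatatac
snR17b, bases 101 to 130: gcttcaggttttGACTAACacattcaacag

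The tRNA introns were 14 to 60 bp long, with a median of 23 bp, and the 60 rows held 27 distinct intron sequences. In all 59 introns whose anticodon is named, the anticodon ended 1 base before the intron. A triplet complementary to it was found in 39 of 59 introns, against 35.6% of genome windows of the same lengths. It was present in 10 of 10 Leu(CAA), 8 of 8 Tyr(GUA), 6 of 6 Trp(CCA), 9 of 10 Phe(GAA), 3 of 3 Leu(UAG) and all Ser introns, and in none of 10 Pro(UGG), 7 Lys(UUU) and 2 Ile(UAU) introns. The intron of tX(XXX)L, a tRNA of undetermined specificity, began with the same 19 bases that make up the whole Ser(GCU) intron. Both U3 introns held GACTAAC in place of the usual TACTAAC, searched on the strand of the gene. Of 263 introns of nuclear protein-coding genes, 4.94% held GACTAAC and 82.9% held TACTAAC, while 71.5% began with GTATGT as both U3 introns did.

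The libraries had 29557254 to 53234402 reads on CDS. All 60 tRNA introns together had 20469 reads in the ribodepleted and 5077 in the polyA libraries, and each had at least 1 read in some library. Identical introns shared near-equal counts in some sets and not in others. The introns of tI(UAU)D and tI(UAU)L, which are identical, had 4045 and 4102 ribodepleted reads in sum, and those of tS(GCU)F and tS(GCU)O, whose whole genes are identical, had 452 and 482. In contrast, the 6 identical tW(CCA) genes spanned 18 to 517 reads and the 6 identical tK(UUU) genes 29 to 458. How reads that fit several copies were counted is not given in the sources used here, so values of single copies are uncertain. If a read was counted once for each copy it fits, a sum over a family holds it more than once. The shares of families would then be too large and the counting intervals of sums too narrow, which was not tested. The strand setting of the counting is also not given, and 2 introns (tP(UGG)N1 and tP(UGG)O2) lie inside an annotated open reading frame on the same strand. The nearest protein-coding gene lay a median of 298.5 bp from the 60 tRNA introns, and on the same strand for 33 of them. How many reads came from transcripts of such neighbours was not tested. The open reading frame IRC13 shares 78 bases with the snR17a gene, which are the 14 bases of its first exon and 64 bases of its intron. IRC13 had 39357 to 87220 reads in ribodepleted and 8 to 169 in polyA libraries, and reads of the 2 genes cannot be told apart in the shared stretch. The strains also differed beyond the RPS22B locus. MET17, a methionine synthesis gene, had 1225 to 40541 reads in the intron deletion and sorted libraries, against 0 or 1 in the WT cultures, whereas the lysine gene LYS2 had 2 to 5 reads in them, against 4741 to 13584 in the WT cultures.

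Reads on tRNA introns in the ribodepleted libraries came mainly from isoleucine and leucine tRNAs. The 2 Ile(UAU) introns gave 39.8% and the 10 Leu(CAA) introns 35.4% of all tRNA intron reads there, and in the polyA libraries Pro(UGG) introns gave 25.3%, all over pooled reads. Within single libraries, Leu(CAA) exceeded Ile(UAU) introns in ribodepleted RNA of NaCl (40.5 against 36.2%) and of Rps22B-high cells (58.7 against 17.7%), and Ile(UAU) introns had the larger share in the other 6. In polyA RNA Pro(UGG) introns held the top share in 6 of 8 libraries, the exceptions being LiCl (Leu(CAA), 24.5%) and the intron deletion (Trp(CCA), 24.3%). In CPM (reads per 1000000 reads on CDS) per kilobase of intron, the level of Ile(UAU) introns ran from 44.9 to 361 with a median of 198 over the 8 ribodepleted libraries. It was lowest in LiCl and highest in NaCl. On the same scale, Ser(GCU) introns had a median of 73.4 (range 8.90 to 177), Leu(CAA) introns 45.6 (6.59 to 217) and Trp(CCA) introns 14.2 (5.08 to 28.3). The median was 13.7 for Lys(UUU), 10.8 for Phe(GAA), 7.21 for Leu(UAG), 6.81 for Pro(UGG), 5.43 for Ser(CGA) and 1.79 for Tyr(GUA) introns. The ranges of neighbouring families over the 8 libraries overlapped in each case. As all families were read in the same libraries, this overlap does not show whether the order held within a library, which was not tested. In polyA libraries no median exceeded 19.4, the value of Leu(UAG). Reads longer than these introns also cover exon bases, so levels per kilobase are approximate.

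**Figure D1:**
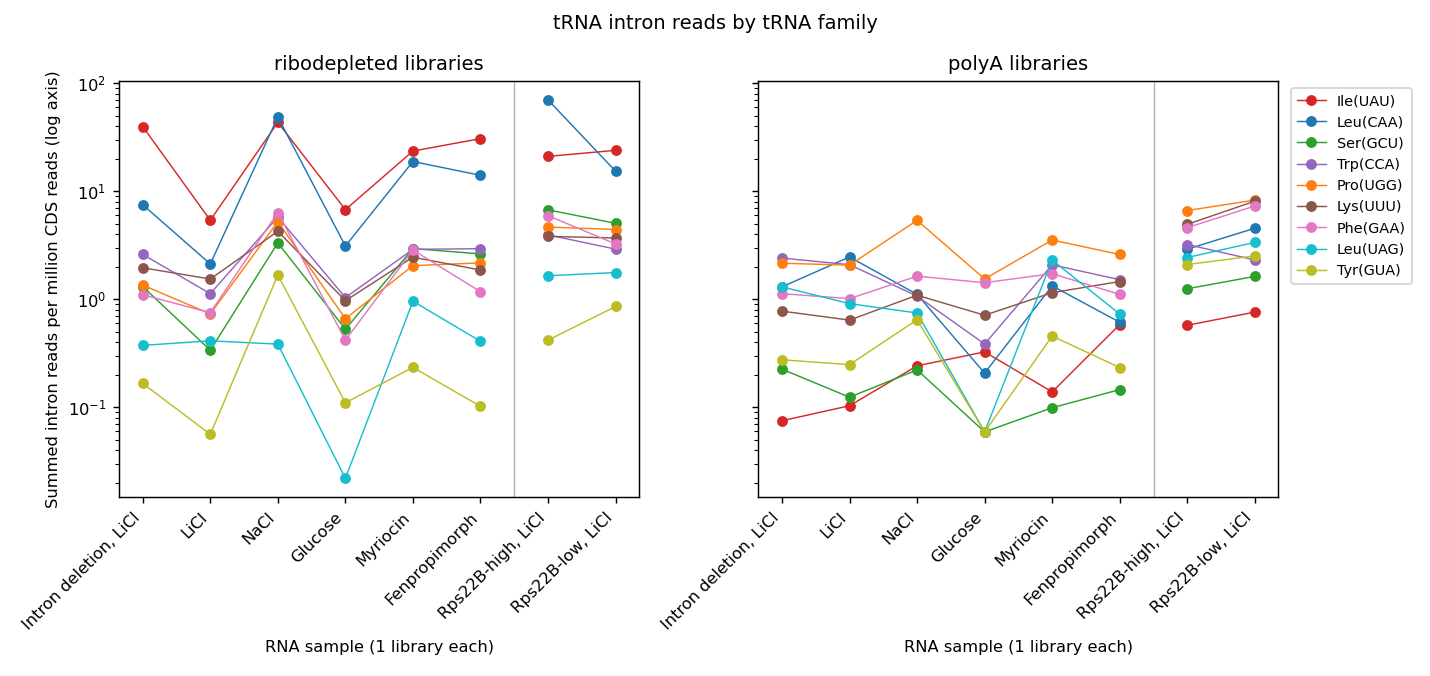
Summed intron CPM (log axis) of 9 tRNA families in each RNA sample, in ribodepleted (left) and polyA (right) libraries. Each point is 1 library and lines join points of a family, with sorted cells right of the grey line. In ribodepleted RNA the Ile(UAU) level was lowest in LiCl (5.39) and highest in NaCl (43.4), and the Leu(CAA) level was highest in Rps22B-high cells (69.9).

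Library type was the only contrast with replication, as each of the 8 RNA samples was sequenced both ways. It was tested with edgeR's quasi-likelihood test with the RNA sample as a block, over 6981 CDS, intron and 5' UTR intron rows with a mean of at least 10 reads, and p-values were adjusted by Benjamini-Hochberg over all of them. Only 33 of the 62 introns passed the read filter, and 29 did not. Of these 33, 24 were higher in ribodepleted libraries at an adjusted p under 0.05, 2 were lower and 7 did not pass. Over all rows tested, 31.9% were higher and 42% lower, and among introns of protein-coding genes 42.2% were higher and 21.5% lower. Scaled by library totals without TMM, the median of all rows moved to −1.05 on the log2 scale, against −0.09 with TMM, and the split became 19 higher and 5 lower. An intron with many reads in only 1 library type could pass the filter through that type, so these counts describe the 33 introns and no more.

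The introns with the largest difference were those of isoleucine and leucine tRNAs. The intron of tL(CAA)C had a lowest, median and highest count of 12, 84.5 and 474 in ribodepleted libraries, against 0, 0.5 and 3 in polyA libraries, without overlap. Its log2 ratio of ribodepleted over polyA was 7.67 ± 0.36 (SE, n = 8 RNA samples; edgeR adjusted p = 3.2e-08). The introns of tI(UAU)L and tI(UAU)D followed at 7.22 ± 0.36 and 6.82 ± 0.36 (edgeR adjusted p = 4.1e-08 and 5.5e-08), and were higher in ribodepleted RNA in 8 of 8 RNA samples. All 10 Leu(CAA) introns were called higher, with log2 ratios of 2.03 to 7.67, as were both Ser(GCU) introns (3.42 and 4.02) and the 3 Trp(CCA) introns tested (1.26 to 1.86). Of the 6 Leu(UAG) and Pro(UGG) introns tested, 1 was called higher and 1 lower.

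At the other end, the intron of tP(UGG)O1, a proline tRNA, was called lower. It had 3 to 41 reads (median 22) in ribodepleted libraries, against 6 to 193 (median 70) in polyA libraries, and was lower in 8 of 8 RNA samples. Its log2 ratio was −1.02 ± 0.16 (edgeR adjusted p = 0.00016). The lysine tRNA intron tK(UUU)L had a ratio of −0.72 ± 0.50 and was not called, and 102 of its 186 polyA reads came from the Rps22B-low library. The phenylalanine tRNA intron tF(GAA)M was called lower at −0.68 ± 0.28 (edgeR adjusted p = 0.048), but its adjusted p was 0.051 to 0.12 without LiCl, glucose, myriocin, fenpropimorph, the intron deletion or Rps22B-low cells, each left out in turn. The tX(XXX)L intron, called higher at 1.40 ± 0.55, was likewise lost without any of NaCl, glucose, myriocin, fenpropimorph or the intron deletion. Across the 31 tRNA introns tested, log2 ratio and intron length had a Spearman rho of 0.49, given as a description, since these introns include copies of the same sequence.

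**Figure D2:**
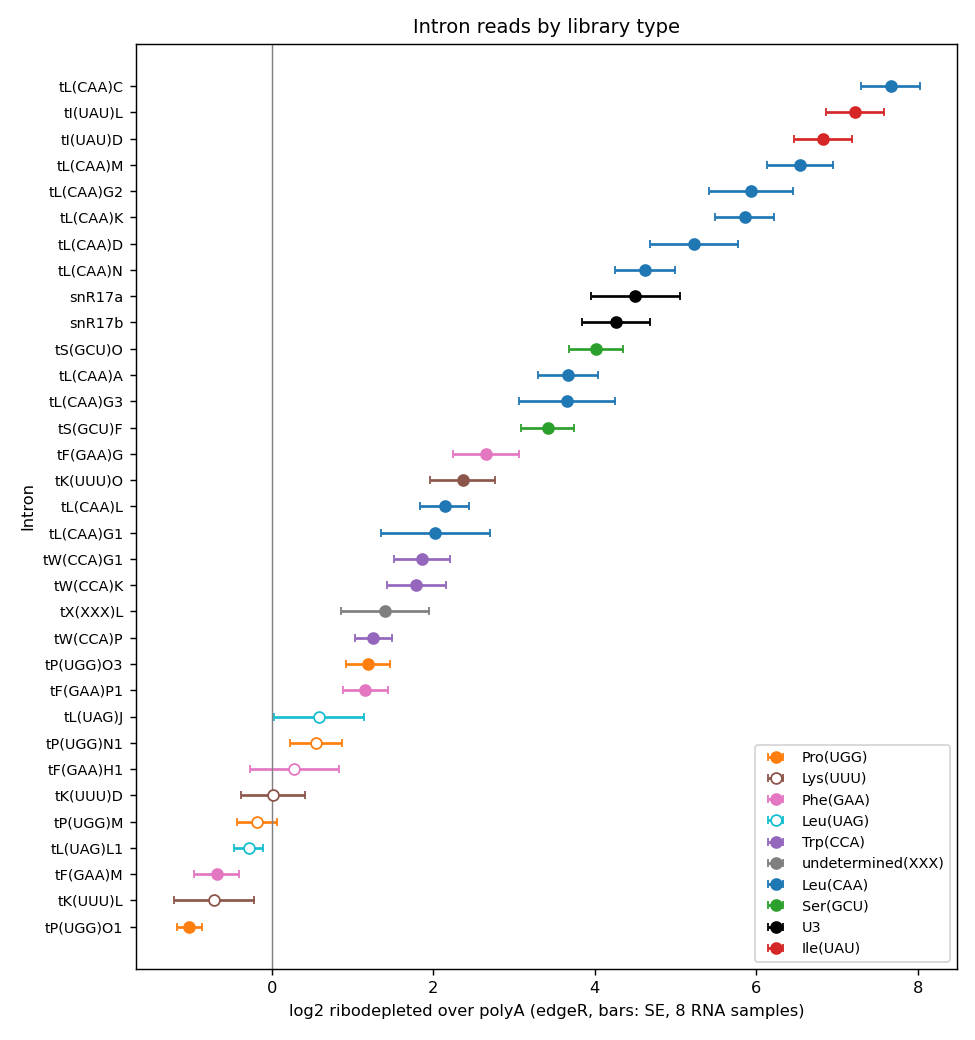
Log2 ratio of ribodepleted over polyA reads for the 33 tRNA and U3 introns with a mean of at least 10 reads, with bars for the standard error over 8 RNA samples. Filled points passed an adjusted p under 0.05 and open points did not. Ratios ran from −1.02 for tP(UGG)O1 to 7.67 for tL(CAA)C.

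To see how LiCl differed from the other stressors, its libraries were set against those of NaCl, glucose, myriocin and fenpropimorph within a library type. The 4 comparisons share the LiCl library, and a log2 ratio here is that of 2 libraries scaled by TMM, with a pseudocount of 0.5 and a 95% interval that covers counting error only. In cultures, fewer cells with an RNA and less of it per cell cannot be told apart. In ribodepleted RNA, tRNA introns together had 675 reads in LiCl, against 4361 in NaCl, 2676 in myriocin, 2208 in fenpropimorph and 621 in glucose. The log2 ratio was −2.87 (−2.98 to −2.75) against NaCl, −2.17 (−2.29 to −2.05) against myriocin, −1.86 (−1.98 to −1.73) against fenpropimorph and −0.06 (−0.22 to 0.10) against glucose. LiCl and glucose thus had the low libraries, and NaCl the high one among the WT cultures.

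Against NaCl, 37 of 62 introns had a mean of at least 10 reads in the ribodepleted pair, and 34 of these were at least 2-fold lower in LiCl while 0 were higher. The filter fixed part of this count, since 19 of the 37 had fewer than 10 reads in LiCl and passed only through the NaCl library, and all 19 are among the 34. Of all rows, 20.3% were at least 2-fold lower and 22.5% higher, and of introns of protein-coding genes 24.7% were higher and 5.84% lower. Their median was 0.10, against −2.64 over the 37 introns. Leucine and isoleucine tRNA introns both differed but not by the same amount. The Leu(CAA) introns had 113 reads in LiCl, against 1768 in NaCl (log2 −4.14, −4.41 to −3.86), and the Ile(UAU) introns 287 reads, against 1577 (−2.63, −2.81 to −2.45). The intervals of these families do not overlap. The proline tRNA intron tP(UGG)O1, with 7 reads in LiCl against 41 in NaCl (−2.64), and the phenylalanine tRNA intron tF(GAA)P1, with 12 against 88 (−3.0), were also low in the polyA pair, at −2.86 and −2.63.

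Against myriocin, 24 of 28 introns were at least 2-fold lower in LiCl in ribodepleted RNA and 0 higher, 10 of the 24 having passed the filter only through the myriocin library, where 15.5% of all rows were higher and 14.8% lower. Of introns of protein-coding genes, 16.9% were higher and 3.1% lower, with a median of 0.16 against −2.12 over the 28 introns. The Leu(CAA) introns had 113 reads in LiCl, against 883 in myriocin (log2 −3.15, −3.43 to −2.86), and the Ser(GCU) introns 18 against 138 (−3.09, −3.79 to −2.39). The leucine tRNA intron tL(CAA)L, with 16 reads in LiCl against 61 in myriocin (−2.08), was low in the polyA pair as well, with 9 against 35 (−2.18). The introns of tF(GAA)P1 and tP(UGG)O1 had ratios of −1.77 each in ribodepleted and −1.86 and −2.13 in polyA RNA. Against fenpropimorph, 13 of 23 introns were at least 2-fold lower and 0 higher, 4 of the 13 having passed only through the fenpropimorph library, where 14% of all rows were higher and 13.2% lower, and of introns of protein-coding genes 43.4% were higher and 1.39% lower. There the Ile(UAU) introns had 287 reads in LiCl, against 1200 (−2.21, −2.39 to −2.02), and the lysine tRNA intron tK(UUU)O 45, against 49 (−0.27, −0.85 to 0.31).

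Against glucose, 16 introns had enough reads in ribodepleted RNA. Of these, 3 were at least 2-fold higher and 5 lower in LiCl, where 20.1% of all rows were higher and 16.4% lower. All 3 higher ones had fewer than 10 reads in glucose and passed the filter only through the LiCl library. The leucine tRNA intron tL(UAG)L1 had 22 reads in LiCl, against 1 in glucose, a log2 ratio of 3.73 with a counting interval of 1.34 to 6.11. Its polyA reads were 44 in LiCl, against 2 in glucose (3.59, 1.75 to 5.43). Introns of nuclear genes with a CDS count had a median of 1.37 in this comparison, and 64.4% of them were at least 2-fold higher and 1.42% lower in LiCl, against a median of −0.27 over the 16 introns.

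**Figure D3:**
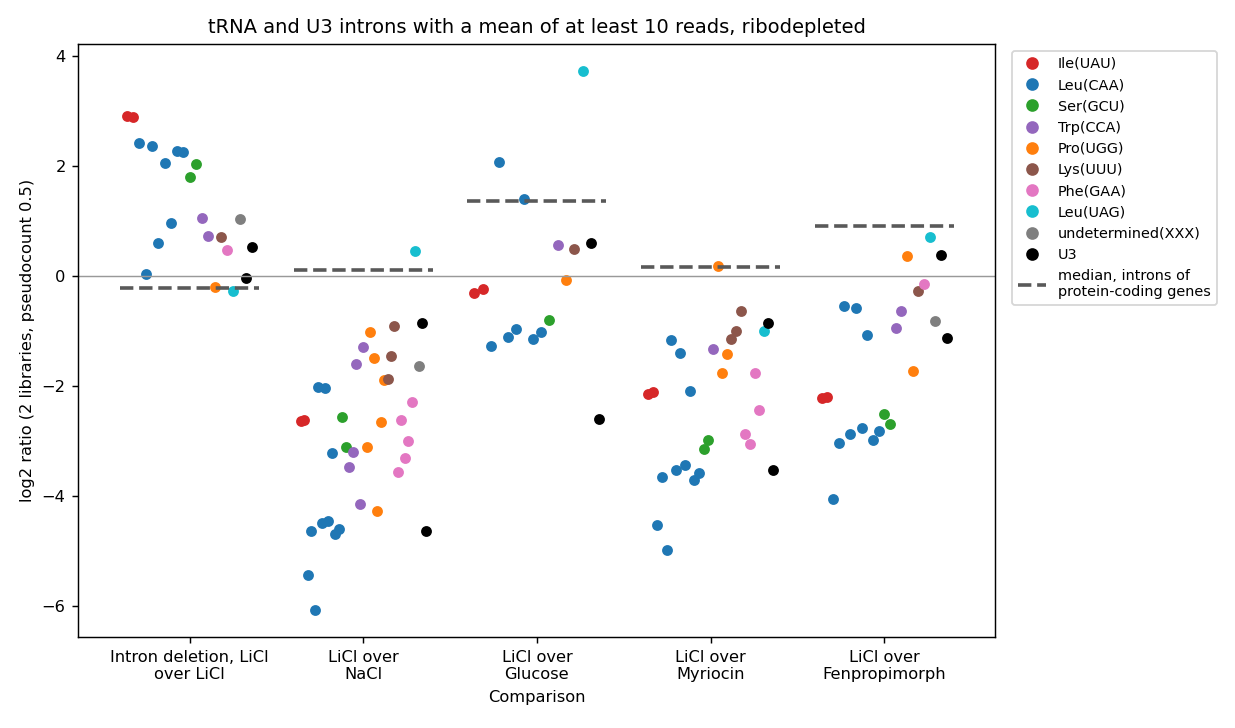
Log2 ratios in ribodepleted RNA for tRNA and U3 introns with a mean of at least 10 reads in the 2 libraries compared, 1 point per intron, coloured by tRNA family. The dashed line is the median of introns of protein-coding genes. Against NaCl the median of the tRNA and U3 introns was −2.64, whereas that of the other introns was 0.10.

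In polyA libraries the same introns had fewer reads, and their ratios were of both signs. The summed log2 ratio of LiCl was −0.73 against NaCl (485 and 618 reads) and −0.73 against myriocin (485 and 665 reads), while it was 0.98 against glucose (485 and 166 reads), or −0.47 when scaled by reads on introns of protein-coding genes, and 0.02 against fenpropimorph (485 and 313 reads). The ratio against fenpropimorph depends on the scaling too. Reads on introns of protein-coding genes were 139204 in LiCl against 45451 in fenpropimorph, so scaling by them lowers this ratio as well. The leucine tRNA intron tL(CAA)G1 had 82 polyA reads in LiCl, against 1 in NaCl, 1 in glucose, 2 in myriocin and 3 in fenpropimorph, with log2 ratios of 5.40 (3.07 to 7.73), 5.22, 4.77 and 3.94. The ribodepleted reads of this intron were 21 in LiCl, against 77, 4, 42 and 28 in those cultures. Against NaCl, 7 of 15 introns were at least 2-fold lower in polyA RNA and 4 higher, where 21.6% of all rows were higher and 17.8% lower, and of introns of protein-coding genes 35.1% and 3.68%. The higher ones were tL(CAA)G1, tF(GAA)M (20 reads in LiCl against 4 in NaCl), tP(UGG)N1 (34 against 10) and the snR17a intron (68 against 7). Of these 4, 3 passed the filter only through the LiCl library, and 6 of the 7 lower ones passed only through the NaCl library.

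Against glucose, 7 of 10 introns with enough polyA reads were at least 2-fold higher in LiCl and 2 lower, where 21.6% of all rows were higher and 15.6% lower. Introns of protein-coding genes were higher in 76.7% and lower in 0.338% of cases there, a share of higher introns close to that of the tRNA and U3 introns. Of the 7 higher tRNA and U3 introns, 4 passed the filter only through the LiCl library, and 1 of the 2 lower ones only through the glucose library. Against myriocin, 3 of 13 introns were higher and 6 lower, where 15.4% of all rows were higher and 14.3% lower, and of introns of protein-coding genes 25% were higher and 4.67% lower. Here 2 of the 3 higher introns passed the filter only through the LiCl library, and 4 of the 6 lower ones only through the myriocin library. Against fenpropimorph, 3 of 11 were higher and 3 lower, where 15.3% of all rows were higher and 11.4% lower, and of introns of protein-coding genes 63.2% and 1.34%. All 3 higher introns passed only through the LiCl library, and 2 of the 3 lower ones only through the fenpropimorph library. The proline tRNA intron tP(UGG)O1 had 34 polyA reads in LiCl, against 124 in myriocin, 60 in fenpropimorph and 6 in glucose, with log2 ratios of −2.13, −1.43 and 1.84. It was thus lower in LiCl than in myriocin and fenpropimorph and higher than in glucose, and in ribodepleted RNA it had 7 reads in LiCl, against 22, 22 and 3.

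To ask whether the RPS22B intron deletion altered these introns in LiCl, the intron deletion culture was set against the WT culture in LiCl. In ribodepleted RNA the tRNA introns had 2705 reads in the intron deletion culture, against 675 in WT, a log2 ratio of 2.17 (2.05 to 2.29). Of 21 introns with enough reads, 11 were at least 2-fold higher and 0 lower, where 1.66% of all rows were higher and 1.88% lower. Of introns of protein-coding genes, 2.4% were higher and 2.4% lower. The 11 were 2 Ile(UAU), 5 Leu(CAA) and 2 Ser(GCU) introns, tW(CCA)K and tX(XXX)L, and the intervals of the last pair included 0. Of the 11, 4 passed the filter only through the intron deletion library. The Ile(UAU) introns had 1903 reads, against 287 in WT (2.90, 2.72 to 3.08), and made up 70.4% of all tRNA intron reads in the intron deletion library, against 42.5% in WT. In contrast, the Lys(UUU) introns had 94 reads against 82 (0.37) and the Leu(UAG) introns 18 against 22 (−0.11).

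In the polyA pair the summed reads did not differ beyond counting error. The tRNA introns had 395 reads in the intron deletion culture, against 485 in WT (0.08, −0.11 to 0.27), and 1 of 12 introns was at least 2-fold higher and 1 lower, where 1.81% of all rows were higher and 2.56% lower, and of introns of protein-coding genes 1.34% and 11.7%. The lower one was tL(CAA)G1 with 19 reads, against 82 in WT (−1.70, −2.42 to −0.99). The higher one passed the filter only through the intron deletion library. The introns with the largest change of one sign in both pairs were tL(CAA)L (0.96 and 0.99), tW(CCA)P (0.73 and 0.26) and tW(CCA)K (1.05 and 0.10) upwards, and tP(UGG)N1 (−0.19 and −0.12) and snR17a (−0.04 and −0.49) downwards, given for ribodepleted and then polyA RNA. As the markers above show, the 2 cultures are also of different strains, so the deletion and the strain cannot be told apart.

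To compare the 2 states of Rps22B expression in 1 stressed culture, Rps22B-high cells were set against Rps22B-low cells. In ribodepleted RNA, 16 of 42 introns with enough reads were at least 2-fold higher in Rps22B-high cells and 0 lower, where 0.616% of all rows were higher and 0.444% lower. Of introns of protein-coding genes, 2.68% were higher and 0% lower. Among the 16, 1 passed the filter only through the Rps22B-high library. The leucine tRNA introns stood at the top. The 10 Leu(CAA) introns together had 2835 reads in Rps22B-high cells, against 589 in Rps22B-low cells, a log2 ratio of 2.34 (2.21 to 2.47). The isoleucine introns, the most abundant ones in Rps22B-low cells, had 852 reads against 919 (−0.03, −0.17 to 0.10).

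Within the leucine family, 5 copies with near-equal counts (tL(CAA)C, G2, K, M and N, grouped after their values were seen) had 2357 reads in Rps22B-high cells, against 385 in Rps22B-low cells, with log2 ratios of 2.61 to 2.82 each. The other 5 Leu(CAA) introns had 478 reads, against 204, with ratios of 0.77 to 1.73 each. The intron of tL(CAA)G3, identical in sequence to those 5, had a ratio of 1.36 (0.80 to 1.92), so the counts of identical introns did not move together. Relative to the tI(UAU)D intron in the same libraries, the tL(CAA)C intron differed by 2.73 log2 units (2.33 to 3.13) between Rps22B-high and Rps22B-low cells.

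Among the other families, the Phe(GAA) introns had 241 reads in Rps22B-high cells, against 125 in Rps22B-low cells (1.02), the Ser(GCU) introns 273 against 194 (0.57, 0.30 to 0.83) and the Pro(UGG) introns 189 against 170 (0.23). The Tyr(GUA) introns lay the other way, with 17 reads in Rps22B-high cells, against 33 in Rps22B-low cells (−0.86, −1.70 to −0.03). The tryptophan tRNA intron tW(CCA)M had 20 reads against 8 in ribodepleted and 15 against 8 in polyA RNA, with log2 ratios of 1.34 and 1.29. The introns tP(UGG)O3 (0.64 and 1.46) and tW(CCA)K (1.11 and 0.42) came next among those of one sign in both pairs. The largest decreases of one sign were those of tK(UUU)O (−0.16 and −1.15), tP(UGG)O1 (−0.16 and −0.26) and snR17a (−0.11 and −0.32).

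In the polyA pair, the tRNA introns had 900 reads in Rps22B-high cells, against 1535 in Rps22B-low cells (−0.35, −0.47 to −0.23), opposite in sign to the ribodepleted pair. Of 35 introns, 4 were at least 2-fold higher and 6 lower, where 0.215% of all rows were higher and 1.03% lower, and of introns of protein-coding genes 0.993% and 2.65%. The filter fixed part of these counts, as 3 of the 4 higher introns passed only through the Rps22B-high library. Likewise, 2 of the 6 lower ones passed only through the Rps22B-low library. The Leu(CAA) introns had 86 polyA reads in Rps22B-high cells, against 173 in Rps22B-low cells (−0.58). The leucine tRNA intron tL(UAG)J was found mainly in sorted cells. It had 48 ribodepleted and 47 polyA reads in Rps22B-high cells, and 52 and 109 in Rps22B-low cells, against 0 to 5 ribodepleted and 0 polyA reads in the other 6 RNA samples, and it was named after its values were seen. Sorted cells differ from the other cultures in strain, time in LiCl and handling, so these cannot be told apart as sources of such differences.

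**Figure D4:**
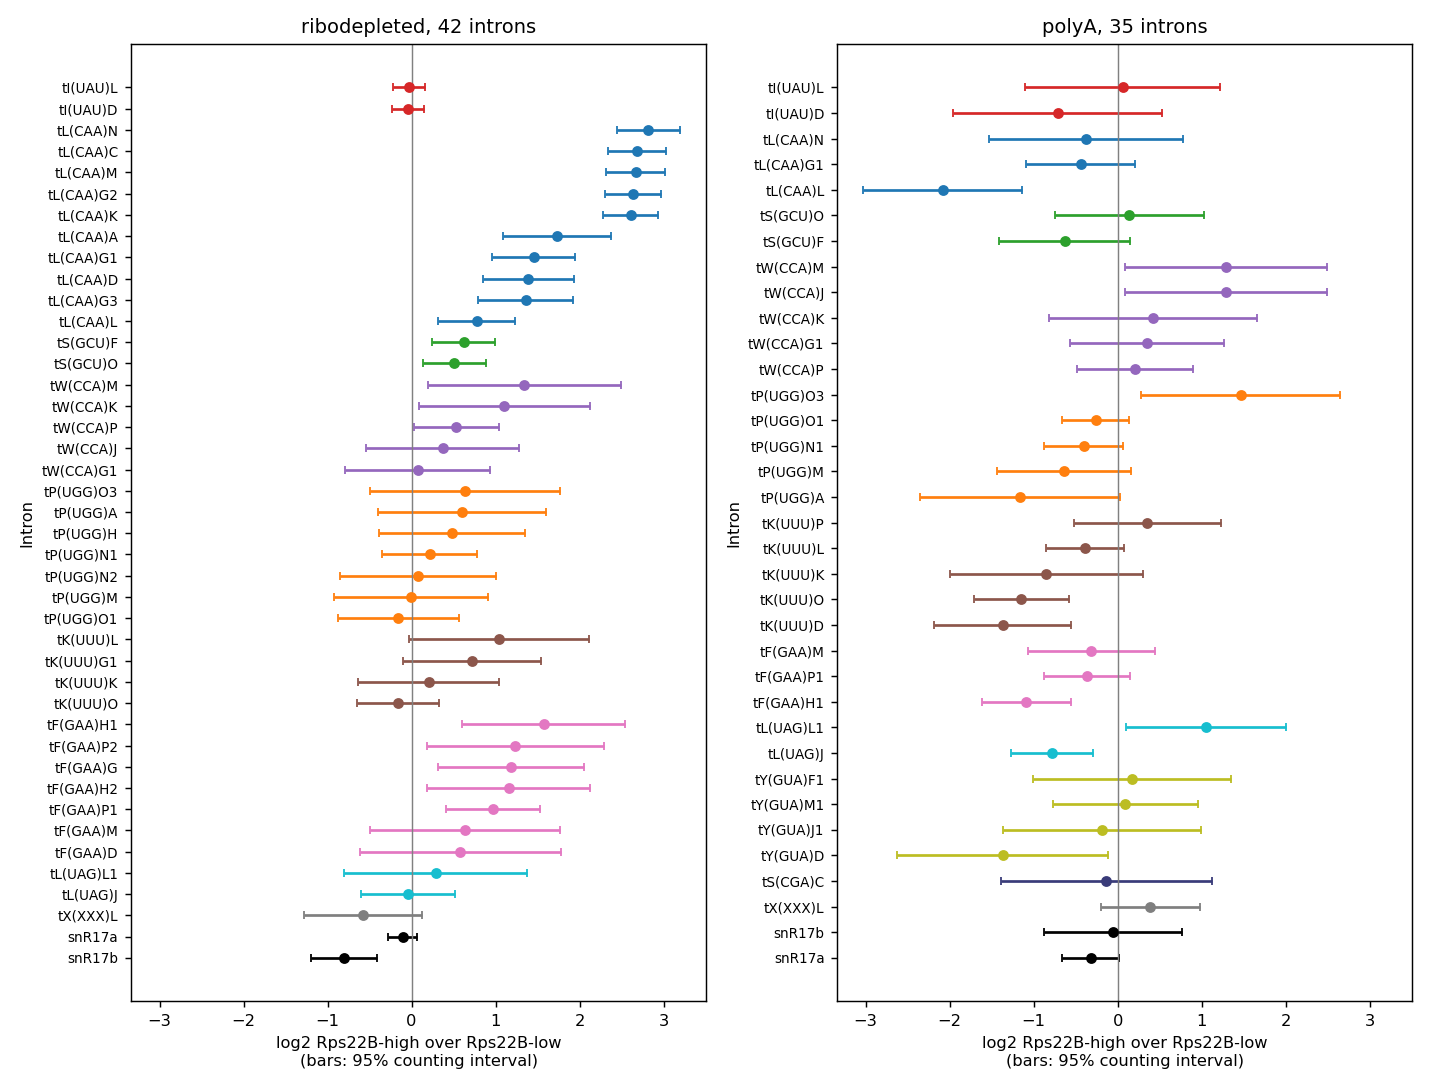
Log2 ratio of Rps22B-high over Rps22B-low cells for each intron with a mean of at least 10 reads, in ribodepleted (left, 42 introns) and polyA (right, 35 introns) libraries, with 95% counting intervals and colours by tRNA family. In ribodepleted RNA the Leu(CAA) introns stood at 0.77 to 2.82, and both Ile(UAU) introns were near 0.

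The U3 introns are the only members removed by the spliceosome. In ribodepleted RNA the snR17a intron had 500 reads in the intron deletion culture, 578 in LiCl, 920 in NaCl, 336 in glucose, 918 in myriocin, 401 in fenpropimorph, 488 in sorted Rps22B-high cells and 553 in sorted Rps22B-low cells. The snR17b intron had 27, 21, 474, 114, 217, 42, 80 and 147 reads in the same order. The snR17b intron thus ranged far more widely, and was lowest in LiCl and the intron deletion culture in LiCl.

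In LiCl against NaCl, the snR17b intron had a log2 ratio of −4.64 (−5.26 to −4.02), whereas the snR17a intron had −0.85 (−1.0 to −0.70). Against glucose, the ratios were −2.59 (−3.26 to −1.93) for snR17b and 0.60 (0.41 to 0.80) for snR17a, and against myriocin −3.52 (−4.16 to −2.88) and −0.85 (−1.0 to −0.70). Against fenpropimorph they were −1.13 (−1.88 to −0.38) for snR17b and 0.38 (0.20 to 0.56) for snR17a. The snR17b change was the larger decrease in each of these, and the difference between the 2 introns within the libraries was −3.79 (−4.44 to −3.15) against NaCl and −1.51 (−2.28 to −0.74) against fenpropimorph.

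The snR17a intron had 26.9 times the reads of the snR17b intron in LiCl (17.5 to 41.4) and 18.2 times in the intron deletion culture (12.4 to 26.7). This ratio was 1.94 in NaCl (1.74 to 2.17), 2.94 in glucose, 4.22 in myriocin and 9.45 in fenpropimorph. It was 6.07 in Rps22B-high cells (4.79 to 7.68), against 3.75 in Rps22B-low cells (3.13 to 4.5), so that sorted cells in LiCl lay below the LiCl culture. The polyA libraries had 1 to 28 snR17b reads each, and the ratio there was 15.2 in LiCl (5.86 to 39.5), against 0.37 in NaCl (0.16 to 0.84). Both U3 introns were higher in ribodepleted than in polyA RNA, by 4.5 ± 0.55 for snR17a and 4.27 ± 0.42 for snR17b on the log2 scale (SE, n = 8; edgeR adjusted p = 2.5e-05 and 4.5e-06). The stretch shared with IRC13 touches snR17a alone, whose intron reads were 0.63 to 2.0% of the IRC13 reads in ribodepleted libraries. As IRC13 reads can hold reads of the first U3 exon, this percentage does not measure how many intron reads came from IRC13. The part of the shared stretch in the ratio was not tested.

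**Figure D5:**
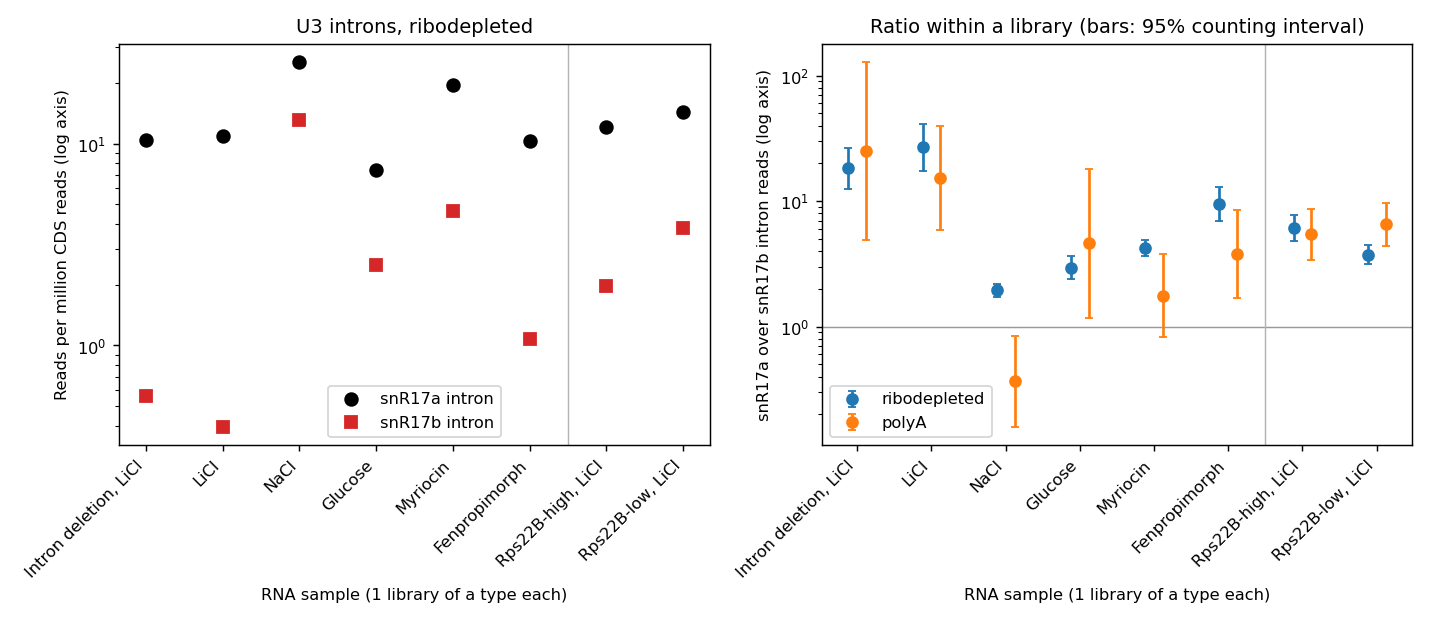
Left, CPM (log axis) of the snR17a and snR17b introns in ribodepleted libraries. Right, ratio of snR17a to snR17b intron reads within each library (log axis) with 95% counting intervals. In ribodepleted RNA the ratio was highest in LiCl (26.9) and lowest in NaCl (1.94).

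The transcripts of genes that make, process and degrade these RNAs were followed as 8 lists. For LiCl against NaCl, 15 of 17 genes of RNA polymerase III were at least 2-fold lower in ribodepleted and 15 of 17 in polyA RNA, where 20.3% and 17.8% of all rows were lower. The list's medians were −1.67 and −1.50, against medians of 0.03 over all rows in both. The subunit genes RPB8 (914 reads in LiCl against 4220 in NaCl, log2 −2.38) and RPC17 (91 against 365, −2.17) had the largest differences of one sign in both library types. RPB8 and some others of the 17, such as RPC40 and RPC19, encode subunits shared with other RNA polymerases. Counts in this list are thus not particular to RNA polymerase III. In ribodepleted RNA 12 of 17 were lower against glucose and 11 against myriocin, where 16.4% and 14.8% of all rows were lower. Against fenpropimorph the 2 of 17 that were lower are close to the 13.2% of all rows. None of the 10 genes of the initiation factors TFIIIB and TFIIIC and the repressor MAF1 was at least 2-fold changed in any of these. The TATA-binding protein gene SPT15 had −0.86 in ribodepleted RNA against NaCl.

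Of the 6 tRNA splicing genes, 2 were at least 2-fold lower in LiCl than in NaCl in ribodepleted RNA, the endonuclease gene SEN34 (138 reads against 311, −1.34) and the ligase gene TRL1 (756 against 1434, −1.10), and 0 were higher. In that comparison 20.3% of all rows were lower and 22.5% higher, and counts in lists this small do not set them apart from all rows. In polyA RNA the ratios were −1.45 for SEN34 and −0.94 for TRL1. The splicing gene SEN15 lay the other way, at 0.37 in ribodepleted and 0.73 in polyA RNA. Of 9 genes of tRNA export and intron turnover, 3 were lower, among them the exporter gene LOS1 (1274 against 4970, −2.14) and UTP8 (−1.74). The pre-tRNA binding protein gene LHP1, in a list of 13 genes of end processing and RNase P of which 4 were lower and 1 higher against the same shares of all rows, had 1183 reads against 6260 (−2.58). Of 10 tRNA modification genes 7 were lower, such as the methyltransferase gene TRM4 (−2.16), where 20.3% of all rows were lower. Of 8 genes listed for nuclear RNA surveillance 6 were lower, such as the helicase gene MTR4 (−2.06). These 6 include MET22 (589 reads against 1298, −1.31), a nucleotidase gene that is not itself a surveillance factor, so the count is not of surveillance factors alone. The modification gene MOD5 lay the other way, at 0.97 in ribodepleted and 1.14 in polyA RNA.

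Of 15 genes of the U3 particle and snoRNA maturation, 10 were at least 2-fold lower in LiCl than in NaCl in ribodepleted RNA and 9 in polyA RNA, where 20.3% and 17.8% of all rows were lower. The snoRNP core genes SNU13 (1608 reads in LiCl against 10182 in NaCl, −2.84), NOP1 (−2.82), NOP56 (−2.80) and NOP58 (−2.51) had the largest differences in that comparison. Between the intron deletion and the WT culture in LiCl, and between Rps22B-high and Rps22B-low cells, 0 genes of the 8 lists were at least 2-fold changed in either library type. Few genes were changed at all in these comparisons, with 1.66% of all rows higher and 1.88% lower in ribodepleted RNA of the intron deletion culture and 0.616% higher and 0.444% lower in that of Rps22B-high cells, so the 0 is not a result about the lists.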

How the data were processed

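The authors aligned paired 100-base reads to the R64 yeast genome and deposited raw featureCounts read counts for 6697 CDS, 347 intron and 24 5' UTR intron rows. The submitters' notes name cutadapt, HISAT2 and featureCounts without versions. The deposited feature lengths, in bp, come from the authors' annotation. How multi-mapping reads, pairs and strand were counted is not given in the sources used here. CPM are reads per 1000000 reads on CDS. Library types were compared with edgeR 4.0.16 (TMM; R 4.3.3), and DESeq2 1.42.0 was an alternative. Treatments were compared as log2 ratios of 2 libraries in Python 3.11.15 (numpy 2.4.6, pandas 2.3.3, matplotlib 3.10.9). Called means at least 2-fold, with a mean of at least 10 reads over both libraries. Intervals are 95% and cover counting error only. Reads without molecular identifiers are not independent molecules. Both calculations were tested on simulated data. Named introns were SNR17A and SNR17B, the 10 tRNA introns with the highest mean level, the 3 highest and 3 lowest by library type, and in each treatment comparison the 3 largest increases and decreases of one sign in both types, by the smaller change. In each list up to 4 genes with the largest change were eligible. The introns, lists and rules were chosen with earlier results of these data known.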

Additional observations from a re-analysis of the deposited data

Results flagged for a closer look

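A few introns had at least 2-fold differences of opposite sign in the ribodepleted and the polyA pair of 1 comparison. Each rests on 1 library per treatment and type, so the difference between library types was not tested. The leucine tRNA intron tL(CAA)G1 had a log2 ratio of LiCl over NaCl of −2.02 in ribodepleted RNA (21 reads in LiCl against 77 in NaCl) and of 5.40 in polyA RNA (82 against 1). Its ratio of LiCl over myriocin was −1.17 in ribodepleted and 4.77 in polyA RNA. The proline tRNA intron tP(UGG)N1 had a ratio of LiCl over NaCl of −1.49 in ribodepleted and 1.34 in polyA RNA, and it lies inside the open reading frame YNL042W-B. The phenylalanine tRNA intron tF(GAA)H1 had a ratio of Rps22B-high over Rps22B-low cells of 1.57 in ribodepleted RNA (32 reads against 11) and of −1.09 in polyA RNA (38 against 109).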

How the results depend on the processing

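With the replicate block (the RNA sample) left out of the model, 18 tRNA introns were called higher and 0 lower by library type, against 22 and 2 with it, and the tP(UGG)O1 intron, at −1.10, missed the threshold (edgeR adjusted p = 0.18). The pairing comes from the labels, which give both libraries of a pair the same treatment or sort. That both came from 1 RNA extract was not tested, and the sorted pairs differ in their labelled genotype. The lower count was 1 with DESeq2, 5 with library totals, 1 in WT cultures and 1 with a mean of at least 50 reads, where the higher count was 8, and without a filter 34 were higher. Leaving out each RNA sample in turn gave 17 to 23 higher and 1 to 2 lower. The summed tRNA intron ratios in ribodepleted RNA kept their sign in the comparisons of LiCl with NaCl, myriocin and fenpropimorph, of the intron deletion with LiCl and of Rps22B-high with Rps22B-low cells, under every alternative. Scaled by library totals, they were −3.24 against NaCl, −2.15 against fenpropimorph and 0.93 for Rps22B-high cells. Scaled by reads on introns of protein-coding genes, LiCl had −4.79 against NaCl, −1.89 against glucose, −3.67 against myriocin and −3.83 against fenpropimorph, the intron deletion had 2.72 and Rps22B-high cells 0.74. The reads used as this scale were themselves high in LiCl, with a CPM of 16950, against 5805 in NaCl and 11457 in the intron deletion. Scaling by them thus lowers the LiCl ratios and raises that of the intron deletion, so it is no check of their sign. In polyA RNA this scaling turned the ratio of LiCl over glucose to −0.47, against 0.98, and it lowers the ratio of LiCl over fenpropimorph as well. Without the most abundant tRNA intron, the intron deletion had 1.89 and Rps22B-high cells 1.26. The median over introns was −2.64 against NaCl, −0.27 against glucose, 1.05 for the intron deletion and 0.64 for Rps22B-high cells. Further alternatives were chosen after seeing the data. Without Ile(UAU) and Leu(CAA) introns, LiCl had −2.06 against NaCl, 0.48 against glucose, −1.51 against myriocin and −0.88 against fenpropimorph, the intron deletion had 0.85 and Rps22B-high cells 0.43. With 1 copy of each distinct intron sequence, Rps22B-high cells had 0.76. Counts of introns at least 2-fold changed in ribodepleted RNA depended most on the read filter. With a mean of at least 50 reads, LiCl was lower for 11 introns against NaCl, 9 against myriocin, 5 against fenpropimorph and 1 against glucose, while 2 were higher in the intron deletion and 9 in Rps22B-high cells. Without a filter the counts were 52, 44, 30 and 14 lower, and 27 higher in the intron deletion. Scaled by reads on introns of protein-coding genes, 23 introns were lower against fenpropimorph and 13 against glucose, and 17 were higher in the intron deletion and 10 in Rps22B-high cells. With 1 library per treatment and type, treatment differences have no replicate error. In the main results, introns with a mean under 10 reads over the 2 libraries compared were not called changed. An intron could still be called with fewer than 10 reads in 1 of these libraries.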
